A study of Papio hamadryas with 160 samples.

Results

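The 46 mature miRNAs described here are those of the imprinted 14q32 domain other than the group antisense to RTL1. They were taken from the deposited table, which holds 316 other miRNAs, by the number in the name alone, either arm, with no measured value used. Of the 43 numbers in the list, 34 had at least 1 row and 9 had none and were not analysed here (hsa-miR-300, hsa-miR-337, hsa-miR-376b, hsa-miR-493, hsa-miR-494, hsa-miR-544a, hsa-miR-655, hsa-miR-665 and hsa-miR-1193). Both arms were present under 11 names. The study's filter asked for at least 10 reads in 80% of the brain libraries and set no condition on blood. hsa-miR-323b-3p sat nearest to that limit among the 46, with 10 reads or more in 80.3% of the 66 brain libraries, while 34 of the 46 reached it in all 66.

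Small RNA was sequenced from peripheral blood mononuclear cells (PBMC) and 14 brain regions of 10 adult baboons (Papio hamadryas) in a study that asked how well blood miRNA levels stand in for brain levels. Group A held 4 females (A1 to A4) euthanized with pentobarbital, from which PBMC, amygdala (AMG), hypothalamic paraventricular nuclei (PVN), and dorsomedial prefrontal (dmPFC), dorsal anterior cingulate (dACC), lateral and medial orbitofrontal (lOFC, mOFC) and posterior cingulate (PCC) cortex were taken. Group B held 6 animals (B1 to B6), all but 1 of them male, exsanguinated under general anesthesia, with PBMC, hippocampus (HC), cerebellum (CB), and dorsolateral prefrontal (dlPFC), motor (MC), entorhinal (EC), posterior parietal (PPC) and occipital (OC) cortex. Per the study's methods the Group A females were younger than the Group B males and older than the Group B female. Since the regions, sex, age and euthanasia differed between the groups, a group difference in any of these cannot be told apart from the others, and every test was made within a group. The animals had taken part in other studies during life, and those of Group B were controls of a pregnancy study that had been moved to another site. AMG of A4, CB of B2, MC of B4 and OC of B6 were not analysed here, which left 31 libraries in Group A and 45 in Group B.

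In human and mouse, the 14q32 domain (distal chromosome 12 in mouse) is imprinted: the protein-coding genes DLK1, RTL1 and DIO3 are expressed from the paternal chromosome and the non-coding RNAs MEG3, MEG8 and MIRG from the maternal one. The miRNAs are cut from the maternal non-coding RNAs. hsa-miR-770 lies in an intron of MEG3, hsa-miR-370 lies between the genes, and the other members belong to the large cluster that runs from miR-379 to miR-656. In eutherian mammals these miRNAs are known chiefly from brain, and in rodent neurons several of them, among them miR-134, miR-485 and miR-541, act on dendritic spines or synapses. Each precursor can yield a 5p and a 3p arm, and the arm loaded into Argonaute is the one that accumulates. Several of the transcripts, those of the miR-376 and miR-379 groups in particular, undergo A-to-I editing in human and mouse brain. Reads were accepted here only with 0 mismatches to the human sequence, so the values count unedited molecules that match human, and an edited molecule or a baboon-specific base would go uncounted.

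Levels are reads per 1000000 mapped miRNA reads of the library (RPM). Levels of different miRNAs, and of the 2 arms of a precursor, are set side by side as read shares, since a kit's adapter ligation favours some sequences and was not measured here. Libraries held 1584760 to 4899930 mapped reads in Group A PBMC and 1934418 to 6966017 in Group A brain, and 707977 to 1208337 in Group B PBMC and 1425622 to 7036382 in Group B brain. The limit that a count of 0 allows, 3 reads, was 0.612 to 1.89 RPM in Group A PBMC and 0.431 to 1.55 RPM in Group A brain, and 2.48 to 4.24 RPM in Group B PBMC and 0.426 to 2.10 RPM in Group B brain, counting error only. The tissues matched their labels by marker: the 6 leukocyte miRNAs summed to 64041 to 146042 RPM in PBMC, against 646.8 to 1514 RPM in brain, and the 5 neuronal miRNAs to 581 to 1042 RPM in PBMC, against 32058 to 71415 RPM in brain. Erythroid miRNAs summed to 7236 to 41386 RPM in PBMC, against 662 to 5360 RPM in brain. The lowest value of a single erythroid marker was 6.53 RPM in Group A PBMC and 0.89 RPM in Group B PBMC. In the brain groups it was 7.18 to 19.6 RPM, so not every erythroid marker was higher in every blood library. The 2 endothelial miRNAs summed to 13780 to 60277 RPM in PBMC, against 3780 to 11104 RPM in brain. Of the neuronal markers, hsa-miR-137 was at 0 in some PBMC libraries. In CB, too, 1 neuronal marker was at 0 in a library. In bulk tissue, fewer cells of a type and less RNA per cell cannot be told apart.

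The amygdala and medial orbitofrontal libraries of A3 went against their labels. The A3 amygdala was below both other amygdalae for 44 of the 46 miRNAs, and the A3 mOFC was above the other 3 mOFC libraries for 39. The same counts over the other 316 miRNAs are not given here. Over the 46, the mean absolute log2 distance of the A3 amygdala was 0.94 to the amygdalae of A1 and A2 and 0.31 to their mOFC (0.28 to dACC, 0.33 to lOFC, 0.37 to dmPFC and 0.48 to PCC), and that of the A3 mOFC was 0.33 to their amygdalae and 1.00 to their mOFC. Over the other 316 miRNAs the distances to AMG and mOFC ran the same way but were smaller (0.43 and 0.25 for the A3 amygdala, 0.27 and 0.41 for the A3 mOFC). Counts of called members in PBMC, PVN and AMG of Group A, and in the PVN arm ratios, are also given without them. Other Group A values include them unless stated. In Group B, PBMC of B2 held the highest value of 30 of the 46 miRNAs, against 65 of all miRNAs in the table. PBMC of B5 held it for 10 of the 46, against 46 of all miRNAs. In Group A, PBMC of A1 held the lowest value of 35 of the 46. The count over all miRNAs is not given here for A1, so this may not be particular to the members. B2 did not stand apart by marker (126228 RPM leukocyte, 12242 RPM erythroid and 675 RPM neuronal markers).

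The 46 miRNAs together took the largest share of mapped reads in the hypothalamus. They made 4.46% ± 0.451 (SD, n = 4) of PVN reads, with a range of 4.03 to 5.05%, and 0.403% ± 0.152 (n = 4) of PBMC reads in Group A. The cortical regions of that group averaged 1.30% ± 0.270 in dmPFC, 1.74% ± 0.148 in dACC, 1.30% ± 0.0615 in lOFC, 1.67% ± 0.637 in mOFC and 1.31% ± 0.145 in PCC (n = 4 each). The amygdala had 2.85% in A1, 2.46% in A2 and 1.34% in A3, while the mOFC of A3 had 2.60% and the other mOFC libraries 1.15 to 1.52%, so the order of these regions in A3 was the reverse of that in A1 and A2.

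Group B spread less among brain regions. The share was highest in EC, at 1.48% ± 0.191 (SD, n = 6), then 1.19% ± 0.110 in HC (n = 6), 1.19% ± 0.235 in CB (n = 5), 1.11% ± 0.112 in MC (n = 5), 1.04% ± 0.149 in dlPFC (n = 6), 1.00% ± 0.113 in PPC (n = 6) and 0.986% ± 0.0582 in OC (n = 5). Neighbours in this order below EC differed by less than 1 SD. PBMC had 0.352% ± 0.246 (n = 6), from 0.155 to 0.793%, with B2 the highest, and its mean lay below that of every brain region in both groups, though B2 reached the lowest dlPFC and PPC libraries.

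**Figure D1:**
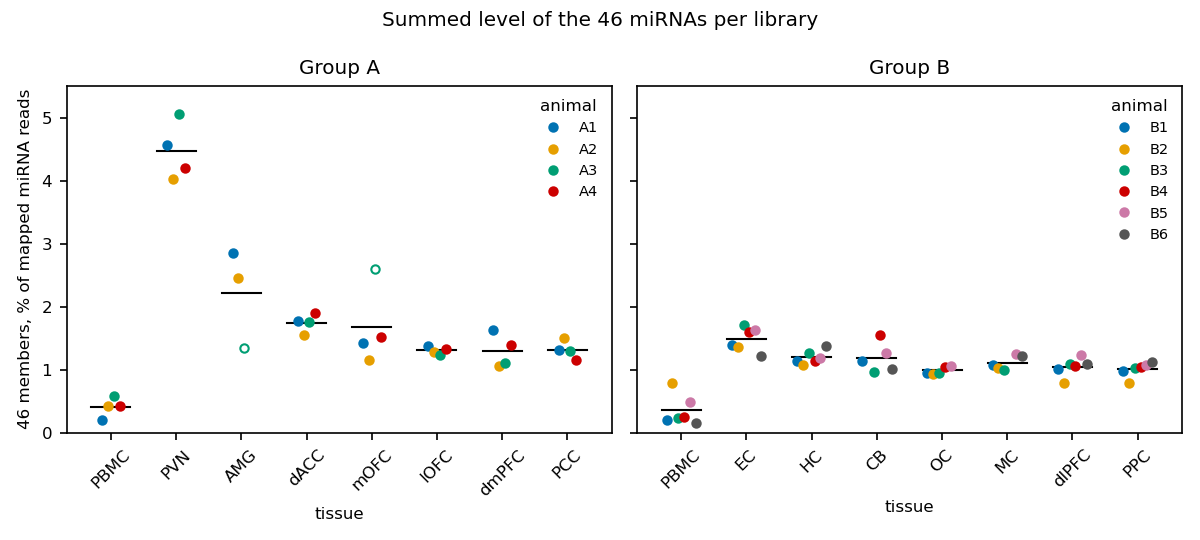
Share of mapped miRNA reads taken by the 46 miRNAs (y axis, %) in each library, by tissue (x axis), Group A left and Group B right, 1 symbol per animal, with open symbols for the AMG and mOFC libraries of A3. The 4 PVN libraries sit between 4.03 and 5.05%, above every other library, and the PBMC libraries lie between 0.155 and 0.793%.

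A few members carried most of the signal. The 8 with the highest mean over the 76 libraries (hsa-miR-411-5p, hsa-miR-410-3p, hsa-miR-381-3p, hsa-miR-889-3p, hsa-miR-409-3p, hsa-miR-654-3p, hsa-miR-487b-3p and hsa-miR-380-3p) made 74.4 to 91.2% of the members' RPM in each library. hsa-miR-411-5p was the highest member in 75 of the 76 libraries, with 10690.1 ± 508 RPM in PVN (SD, n = 4), 4459.5 ± 216 RPM in OC (n = 5) and 825 ± 526.5 RPM in Group B PBMC (n = 6). The exception was PVN of A3, where hsa-miR-410-3p had 12647 RPM and hsa-miR-411-5p 11346 RPM. By region mean, PVN was the highest brain region of Group A for 46 of the 46 members, and PCC was the lowest for 33, dmPFC for 7 and lOFC for 6. In Group B, EC was the highest for 39, CB for 6 and HC for 1. OC was the lowest for 25, CB for 16, dlPFC for 3 and MC for 2. The same ranks over all miRNAs of the table are not given here. Most miRNAs of the table were also higher in PVN and EC, and lower in OC and CB, than in cortex of the same animals. These rank counts may therefore not be particular to the members.

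Blood was compared with the brain of the same animals, an animal's brain value being the mean of its regions. RPM values given for a reference are means over its libraries, while fold changes come from means of log2(RPM + 1). No member was higher in PBMC of Group A and 43 of 46 were lower (limma, adjusted P under 0.05), where 28.5% of all miRNAs in the table were called higher and 60.5% lower. The median log2 fold change (log2FC, on log2(RPM + 1)) was -2.95 over the members and -1.53 over all miRNAs. In Group B, 0 members were higher and 40 lower, against 31.8 and 59.9% of all miRNAs, with medians of -2.39 and -1.32. PBMC values lay below the brain means of all animals for 41 members in Group A and for 34 in Group B. The same held for 57.7 and 52.8% of all miRNAs. Overlap was judged, here and further on, from 1 value per animal and class, so a single region can lie outside these ranges. The PBMC comparisons of a group share their brain libraries with the region comparisons further on, so their counts are not independent. Median of ratios scaling moved the median over all miRNAs to -0.81 in Group A and -1.05 in Group B and gave 39 members lower and 0 higher in Group A, with 53.0 and 35.6% of all miRNAs, and 40 lower and 1 higher in Group B, with 55.5 and 34.0%. Without the AMG and mOFC libraries of A3, 42 members were lower and 0 higher in Group A, where 60.2% of all miRNAs were lower. Quantile normalization, which forces equal distributions on blood and brain, gave 27 lower and 8 higher in Group A, with 43.6 and 42.5% of all miRNAs, and 22 lower and 11 higher in Group B, with 41.4 and 44.5%.

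The most abundant members were lower in blood in both groups. hsa-miR-411-5p had 555, 1094, 1557 and 1161 RPM in PBMC of A1 to A4, against 6435, 5505, 5519 and 5661 RPM in their brains, without overlap (log2FC = -2.40, SE = 0.30, adjusted P = 0.000285). In Group B its lowest, median and highest values were 445, 557 and 1743 RPM in PBMC, against 3696, 4166 and 4582 RPM in brain (log2FC = -2.53, SE = 0.30, adjusted P = 8.89e-05). Every animal of both groups had less in blood, and B2 was the highest PBMC sample. hsa-miR-410-3p, the next in abundance, had 178, 343, 574 and 359 RPM in Group A PBMC, against 4580.1, 3844, 4945 and 4056 RPM in brain (log2FC = -3.51, SE = 0.28, adjusted P = 3.32e-05), and 118, 174 and 592 RPM (lowest, median, highest) in Group B PBMC, against 1612, 2064 and 2309 RPM in brain (log2FC = -3.12, SE = 0.33, adjusted P = 4.39e-05). It too was lower in the blood of all 10 animals, with no overlap.

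hsa-miR-381-3p fell less. It had 313, 594, 859 and 525 RPM in Group A PBMC, against 1762, 1629.9, 1732 and 1534 RPM in brain (log2FC = -1.51, SE = 0.26, adjusted P = 0.00158), and 201, 368 and 1121 RPM (lowest, median, highest) in Group B PBMC, against 799.6, 1148 and 1380.0 RPM in brain (log2FC = -1.32, SE = 0.37, adjusted P = 0.00921). The Group B ranges overlapped because PBMC of B2 was above its own brain mean. hsa-miR-889-3p had 131, 241, 404 and 255 RPM in Group A PBMC, against 1738, 1316, 1760.1 and 1481 RPM in brain (log2FC = -2.59, SE = 0.29, adjusted P = 0.000159), and in Group B 73.7, 102 and 316 RPM in PBMC, against 539.6, 672 and 734 RPM in brain (log2FC = -2.30, SE = 0.33, adjusted P = 0.000242). Neither group overlapped. hsa-miR-487b-3p had 22.2, 61.2, 71.8 and 49.0 RPM in Group A PBMC, against 485, 475, 517 and 345 RPM in brain (log2FC = -3.08, SE = 0.31, adjusted P = 9.45e-05), and in Group B 19.6, 34.2 and 98.1 RPM in PBMC, against 210.3, 264 and 298 RPM in brain (log2FC = -2.60, SE = 0.35, adjusted P = 0.000178). It was lower in the blood of every animal without overlap. hsa-miR-380-3p had 40.4, 89.0, 126 and 75.9 RPM in Group A PBMC, against 488, 469, 483 and 403 RPM in brain (log2FC = -2.05, SE = 0.28, adjusted P = 0.000433), and in Group B 26.8, 46.3 and 149 RPM in PBMC, against 113, 159 and 185 RPM in brain (log2FC = -1.26, SE = 0.36, adjusted P = 0.0112), overlapping through B2 alone.

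The steepest falls were to a few RPM or none. hsa-miR-323a-3p had 1.84, 2.52, 7.16 and 4.86 RPM in Group A PBMC, against 241, 249, 275 and 209 RPM in brain (log2FC = -5.48, SE = 0.28, adjusted P = 3.97e-06), and 1.41, 3.06 and 5.70 RPM (lowest, median, highest) in Group B PBMC, against 75.7, 99.0 and 117 RPM in brain (log2FC = -4.52, SE = 0.26, adjusted P = 1.06e-06). Blood and brain values were far apart, and those in Group B blood were near the level of 3 reads. hsa-miR-668-3p had 0.410, 1.26, 0.830 and 0.880 RPM in Group A PBMC, against 56.8, 49.1, 48.5 and 41.7 RPM in brain (log2FC = -4.62, SE = 0.19, adjusted P = 1.39e-06). In Group B it had 0, 0.445 and 1.14 RPM (lowest, median, highest) in PBMC, against 20.1, 29.7 and 36.9 RPM in brain (log2FC = -4.33, SE = 0.26, adjusted P = 1.28e-06), which was 3 reads over the 6 PBMC libraries and a pooled brain-over-PBMC ratio of 58.2 (95% exact counting interval 19.9 to 282). Both groups were without overlap.

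hsa-miR-770-5p, the MEG3 intronic miRNA, was close to absent from blood reads. Its 4 PBMC libraries of Group A gave 0, 0.630, 0 and 0 RPM, a total of 1 read, against 63.5, 52.7, 65.9 and 51.8 RPM in brain (log2FC = -5.32, SE = 0.21, adjusted P = 1.26e-06). The pooled ratio of brain over PBMC was 724 (interval 129.9 to 28598). In Group B it was at 0 in all 6 PBMC libraries, against 15.6, 22.1 and 33.3 RPM (lowest, median, highest) in brain, at least 6.96-fold higher in brain than the floor of 3 reads per library (log2FC = -4.26, SE = 0.15, adjusted P = 6.09e-08, a fit that depends on the added 1 RPM). hsa-miR-487a-3p and hsa-miR-541-3p were also at 0 in all 6, with brain at least 2.94- and 2.21-fold above that floor. In Group A hsa-miR-487a-3p had 3 PBMC reads and a pooled ratio of 97.8 (33.5 to 474). With these 3 members at their bound, the Group B median over the members was -2.24.

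The smallest called falls among members that moved one way in every animal were of others. In Group A, hsa-miR-369-3p had 64.7, 56.8, 104 and 68.9 RPM in PBMC, against 134, 155, 139 and 116 RPM in brain, without overlap (log2FC = -0.67, SE = 0.20, adjusted P = 0.0193), but the sign turned to 0.08 under median of ratios. In A3 its PBMC value was above single cortical regions, such as PCC (60.4 RPM). hsa-miR-323b-3p had 1.84, 4.42, 7.98 and 3.97 RPM, against 10.3, 7.74, 10.9 and 9.58 RPM in brain, overlapping at A3 (log2FC = -0.78, SE = 0.28, adjusted P = 0.038). Its call was lost without the AMG and mOFC libraries of A3. hsa-miR-409-3p had 267, 692, 717 and 781 RPM, against 1722, 1526, 1498 and 1747 RPM in brain, without overlap, with A1 the lowest (log2FC = -0.98, SE = 0.30, adjusted P = 0.0206). Its PBMC values in A2 to A4 were above their own dmPFC (548, 532 and 754 RPM), and A1 was below its own. In Group B, where hsa-miR-411-3p had the smallest called fall (log2FC = -0.87) with 1 animal running the other way, hsa-miR-409-5p had 57.9, 109.7 and 372 RPM (lowest, median, highest) in PBMC, against 288, 347 and 511 RPM in brain (log2FC = -1.43, SE = 0.27, adjusted P = 0.00133), lower in the blood of 6 of 6 animals although B2 reached into the brain range. hsa-miR-382-3p had 0.960, 2.36 and 6.25 RPM in PBMC, against 9.60, 10.4 and 11.9 RPM in brain (log2FC = -1.72, SE = 0.27, adjusted P = 0.000454). The values did not overlap, though those in blood were about 1 to 6 RPM. hsa-miR-299-3p had 15.7, 30.0 and 57.0 RPM in PBMC, against 109, 111 and 129 RPM in brain, without overlap (log2FC = -1.83, SE = 0.23, adjusted P = 0.000132).

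Some members stood near brain level in blood and were not called in either group. hsa-miR-654-3p, among the 8 most abundant, had 289, 689, 874 and 501 RPM in Group A PBMC, against 782, 635, 657 and 745 RPM in brain (log2FC = -0.09, SE = 0.32, adjusted P = 0.785), with A1 and A4 below their brains and A2 and A3 above. In Group B it had 238, 344 and 1206 RPM (lowest, median, highest) in PBMC, against 254, 402 and 490.1 RPM in brain (log2FC = 0.25, SE = 0.39, adjusted P = 0.55), B2 and B5 being above their brains and the other 4 below. hsa-miR-379-3p (log2FC = -0.29, SE = 0.22, adjusted P = 0.263 in Group A and log2FC = 0.06, SE = 0.23, adjusted P = 0.802 in Group B) and hsa-miR-1185-1-3p (log2FC = -0.36, SE = 0.33, adjusted P = 0.332 and log2FC = 0.48, SE = 0.30, adjusted P = 0.165) were the other members not called in either. In Group B hsa-miR-409-3p had 165, 384 and 1477 RPM in PBMC, against 430.1, 472 and 559.6 RPM in brain (log2FC = 0.01, SE = 0.39, adjusted P = 0.98), with B2 far above the rest. hsa-miR-323b-3p (log2FC = -0.13) and hsa-miR-369-3p (log2FC = -0.21) also missed the threshold there. Leaving out B2 gave 40 members lower and 0 higher, the same counts as with it, where 217 of all miRNAs were lower and 114 higher.

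**Figure D2:**
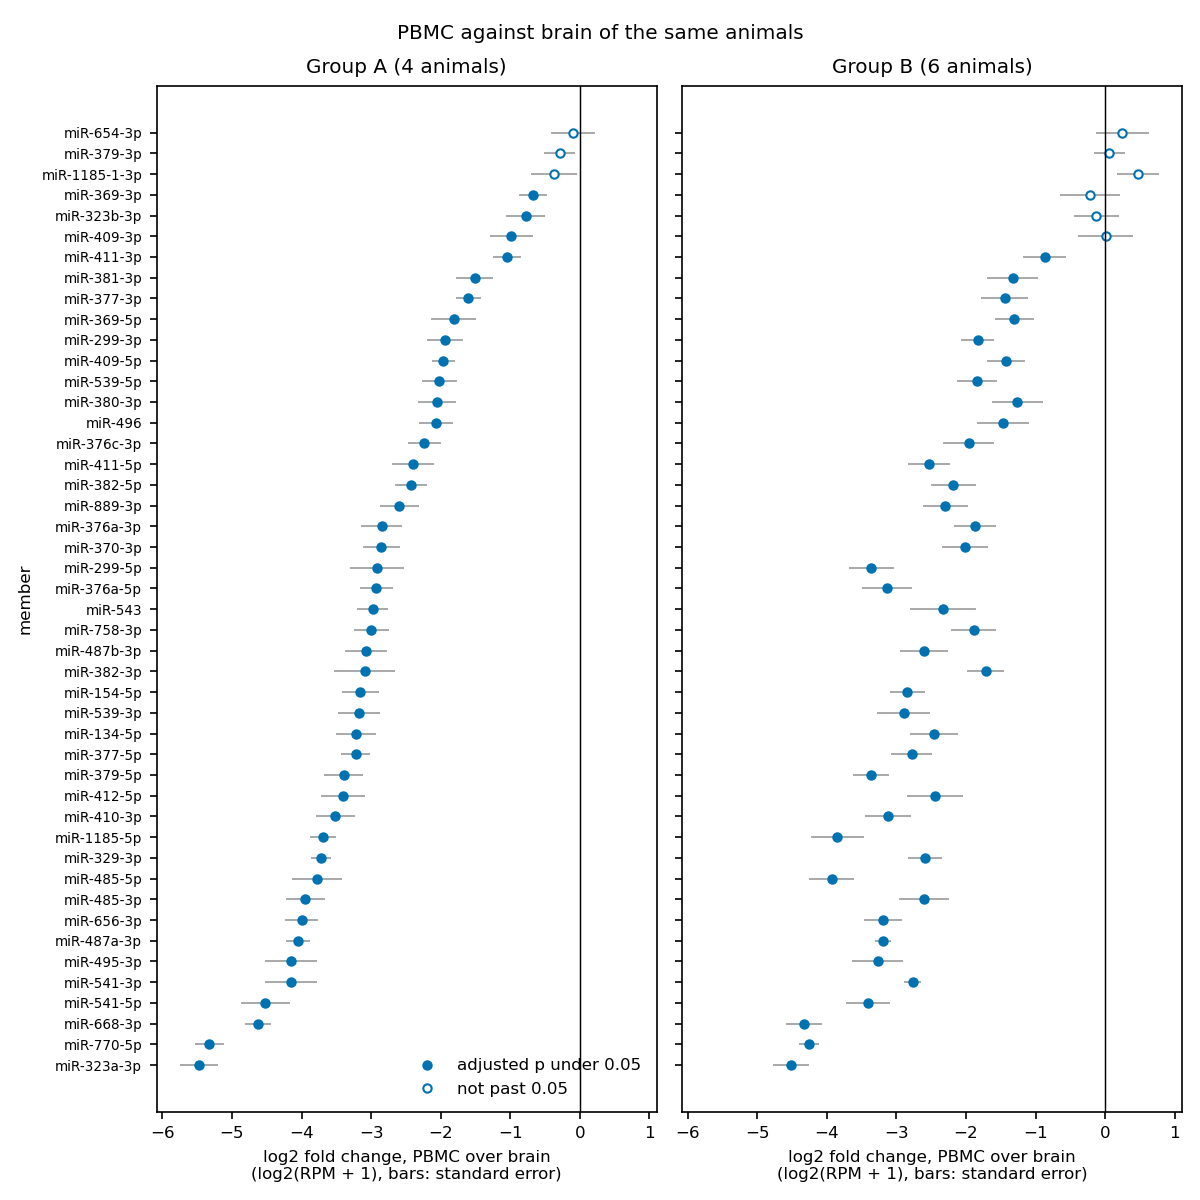
Log2 fold change of PBMC over brain (x axis, log2(RPM + 1), bars 1 standard error) for each of the 46 members (y axis), Group A left (n = 4 animals) and Group B right (n = 6), filled points for adjusted P under 0.05. Called members lie left of 0 in both panels (43 in Group A, 40 in Group B), and hsa-miR-654-3p lies near 0 in both (-0.09 and 0.25).

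PVN was compared with the mean of the 5 cortical regions of the same animals. All 46 members were higher in PVN and none lower, where 62.7% of all miRNAs were called higher and 10.2% lower. The median log2FC was 1.79 over the members and 0.54 over all miRNAs. PVN values lay above those of cortex without overlap for 45 members and for 51.4% of all miRNAs. Because most miRNAs were higher in PVN on the RPM scale, the scaling bears on the size: median of ratios moved the median over all miRNAs to -0.02 and that over the members to 1.25, with 46 called higher and 0 lower (34.8 and 33.4% of all miRNAs), and quantile normalization gave 44 and 0 (30.4 and 36.7%). Without the AMG and mOFC libraries of A3 the counts were 46 and 0, with 62.4% of all miRNAs higher. Marker sums moved with this comparison: the 2 neuroendocrine miRNAs (hsa-miR-7-5p and hsa-miR-375) summed to 2155 to 3500.3 RPM in PVN, against 358 to 1618 RPM in cortex, the 3 choroid plexus markers to 4909 to 6734 RPM in PVN, against 1012 to 4187 RPM in cortex (1012 to 1693 RPM without the A3 mOFC library), the 4 erythroid markers to 2039 to 3118 RPM in PVN, against 851 to 1677 RPM in cortex, and the neuronal markers to 32058 to 42430 RPM in PVN, against 44974 to 67831 RPM in cortex. No marker of these lists was at 0 in a PVN library, and their part in the result was not tested.

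The largest rises in PVN were those of hsa-miR-758-3p, hsa-miR-409-3p and hsa-miR-541-5p. hsa-miR-758-3p, known in human cells as a regulator of the cholesterol transporter ABCA1, had 592, 460.5, 766 and 419.7 RPM in PVN of A1 to A4, against 57.3, 51.5, 67.7 and 46.7 RPM in their cortex (log2FC = 3.33, SE = 0.10, adjusted P = 4.37e-06). hsa-miR-409-3p had 6352, 4854, 5548 and 5838 RPM in PVN, against 789, 725, 838 and 929 RPM in cortex (log2FC = 2.85, SE = 0.09, adjusted P = 4.37e-06), behind only hsa-miR-411-5p and hsa-miR-410-3p in mean PVN level. hsa-miR-541-5p, whose rat counterpart acts in neurons, had 197, 167, 186 and 167 RPM in PVN, against 24.8, 27.0, 27.6 and 23.4 RPM in cortex (log2FC = 2.80, SE = 0.09, adjusted P = 4.37e-06). For these 3 the lowest PVN value was several times the highest cortical value.

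The abundant members rose too, by unequal amounts. hsa-miR-380-3p had 1722, 1603, 1671 and 1271 RPM in PVN, against 217, 219, 295 and 229 RPM in cortex (log2FC = 2.79, SE = 0.11, adjusted P = 7.28e-06). hsa-miR-654-3p had 2045, 1585, 1863 and 1968 RPM, against 462, 416, 467 and 501 RPM in cortex (log2FC = 2.06, SE = 0.09, adjusted P = 7.5e-06). hsa-miR-487b-3p had 963, 936, 1154 and 696 RPM, against 341, 334, 417 and 274 RPM in cortex (log2FC = 1.49, SE = 0.08, adjusted P = 1.36e-05). None of these overlapped between the tissues, and A3 or A1 was the highest PVN sample in each. hsa-miR-889-3p had 3048, 2375, 3469 and 2719.5 RPM in PVN, against 1323, 988, 1530.3 and 1234 RPM in cortex (log2FC = 1.23, SE = 0.08, adjusted P = 2.38e-05), and hsa-miR-381-3p had 2741, 2680.0, 3459 and 2734 RPM, against 1325, 1261, 1485 and 1294 RPM in cortex (log2FC = 1.15, SE = 0.09, adjusted P = 4.36e-05). For hsa-miR-410-3p and hsa-miR-411-5p the log2FC was 1.68 and 1.20. A less abundant member, hsa-miR-134-5p, which limits dendritic spine size through Limk1 in rat hippocampal neurons, stood between hsa-miR-380-3p and hsa-miR-654-3p. It had 591, 508, 712 and 534 RPM in PVN, against 124, 121, 134 and 126 RPM in cortex (log2FC = 2.24, SE = 0.10, adjusted P = 1.03e-05).

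At the lower end, hsa-miR-656-3p had 222, 210.2, 330.3 and 175 RPM in PVN, against 146, 116, 158 and 100.5 RPM in cortex (log2FC = 0.85, SE = 0.10, adjusted P = 0.000372). Its difference was -0.07 under quantile normalization. hsa-miR-496 had 21.2, 14.5, 23.4 and 20.6 RPM in PVN, against 9.61, 7.12, 11.7 and 13.0 RPM in cortex (log2FC = 0.95, SE = 0.10, adjusted P = 0.000158), and hsa-miR-299-5p had 47.6, 60.9, 75.9 and 82.0 RPM, against 32.2, 24.3, 35.2 and 38.5 RPM in cortex (log2FC = 1.02, SE = 0.13, adjusted P = 0.000446). In each of the 3 members all PVN values were above the cortical mean of every animal. Single cortical libraries did reach the PVN range for hsa-miR-656-3p and hsa-miR-496, with 232 and 19.9 RPM in the A3 mOFC.

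In the amygdala of A1 to A3 no member was called against cortex, as 0.00% of all miRNAs were called higher and 0.00% lower by limma. At an unadjusted p under 0.05 there were 19 members and 48 miRNAs in all, edgeR called 0 members, and DESeq2 called 3 higher (hsa-miR-134-5p, hsa-miR-323a-3p and hsa-miR-409-5p), with 2.49% of all miRNAs higher and 1.66% lower. The median log2FC was 0.76 over the members, 46 of 46 being above 0, and 0.17 over all miRNAs. Without the AMG and mOFC libraries of A3, which leaves the amygdalae of A1 and A2, 37 members were higher and 0 lower, where 20.4% of all miRNAs were called higher and 1.66% lower, and the medians were 1.11 and 0.26. The A3 libraries were set aside after the members' own levels in them had been seen. Values without them are therefore a description and not a test of the members. Choroid plexus markers summed to 3465 and 5985 RPM in AMG of A1 and A2, against 1012 to 1623 RPM in their cortex, and neuroendocrine markers to 1209 and 1379 RPM in AMG, against 358 to 932 RPM, and their part was not tested. hsa-miR-134-5p shows the split: it had 326, 388 and 142 RPM in AMG of A1 to A3, against 124, 121 and 134 RPM in cortex (log2FC = 1.10, SE = 0.34, adjusted P = 0.331), the A3 amygdala lying close to cortex, and without the 2 A3 libraries its log2FC was 1.55 (SE = 0.21, adjusted P = 0.0122). hsa-miR-412-5p had 67.5, 56.7 and 23.5 RPM in AMG, against 19.3, 16.5 and 33.6 RPM in cortex, where A3 alone ran downward. The PVN and AMG comparisons share their cortical libraries.

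**Figure D3:**
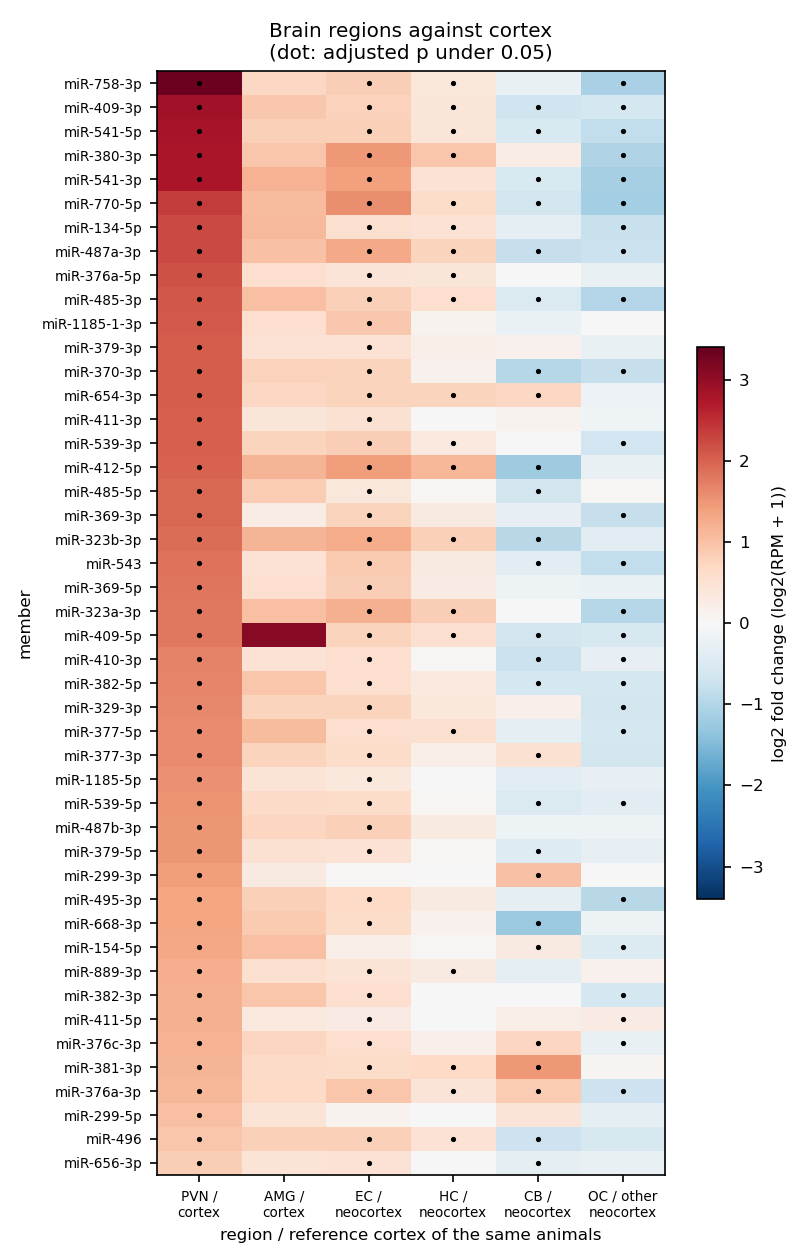
Log2 fold change (colour, log2(RPM + 1)) of each of the 46 members (rows, sorted by PVN) in 6 regions against the cortex of the same animals (columns), with a dot for adjusted P under 0.05. The PVN column is dotted for 46 members and the EC column for 43, the AMG column for none, and CB and OC hold dots in both directions (7 higher and 19 lower in CB, 1 higher and 25 lower in OC).

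In Group B, EC was set against the mean of dlPFC, MC, PPC and OC. There 43 members were higher in EC and 0 lower, where 39.2% of all miRNAs were called higher and 12.2% lower, with a median log2FC of 0.72 over the members and 0.15 over all miRNAs. Only hsa-miR-154-5p, hsa-miR-299-3p and hsa-miR-299-5p missed the threshold. EC values lay above those of neocortex without overlap for 16 members and for 13.0% of all miRNAs. Neuroendocrine markers summed to 514 to 2079.7 RPM in EC, against 106 to 693 RPM in the neocortical regions, and oligodendrocyte markers to 3790 to 7743 RPM in EC, against 5309 to 12893 RPM. Their part was not tested. The EC, HC, CB and OC comparisons share neocortical libraries.

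hsa-miR-770-5p rose most in EC, with 26.3, 45.5 and 84.4 RPM (lowest, median, highest), against 13.2, 16.5 and 23.6 RPM in neocortex (log2FC = 1.57, SE = 0.13, adjusted P = 2.78e-05). hsa-miR-380-3p had 215, 294 and 390.1 RPM in EC, against 76.9, 118 and 128 RPM in neocortex (log2FC = 1.46, SE = 0.13, adjusted P = 3.22e-05), and hsa-miR-412-5p had 21.9, 25.3 and 37.1 RPM, against 7.22, 10.1 and 11.7 RPM in neocortex (log2FC = 1.42, SE = 0.15, adjusted P = 6.1e-05). These 3 were higher in 6 of 6 animals without overlap. The smallest called rise in EC was that of hsa-miR-411-5p (log2FC = 0.27, adjusted P = 0.0321), with B6 running the other way. Among members higher in every animal, the smallest rises overlapped: hsa-miR-1185-5p had 42.7, 48.2 and 74.9 RPM in EC, against 27.5, 42.8 and 48.5 RPM in neocortex (log2FC = 0.35, SE = 0.11, adjusted P = 0.0197). hsa-miR-485-5p, which acts on the synaptic vesicle protein SV2A in rat neurons, had 126, 168 and 225 RPM in EC, against 118, 124 and 143 RPM in neocortex (log2FC = 0.39, SE = 0.10, adjusted P = 0.00676), and hsa-miR-379-5p had 89.0, 109.9 and 158 RPM, against 70.4, 80.7 and 89.2 RPM in neocortex (log2FC = 0.50, SE = 0.11, adjusted P = 0.00362). Each was higher in 6 of 6 animals, by little in B6, whose neocortical mean lacks OC, as that of B4 lacks MC.

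HC was called for fewer members, 20 higher and 0 lower, where 14.4% of all miRNAs were called higher and 11.6% lower. The median log2FC was 0.31 over the members and 0.03 over all miRNAs. The count rested on single animals and on the pairing: it was 10 without B1, 11 without B3, 13 without B4, 13 without B6, and 11 without the animal as a block. The share of all miRNAs called higher fell alongside, to 7.18, 7.46, 9.12, 8.84 and 8.56% in the same order. Choroid plexus markers summed to 1584 to 3296 RPM in HC, against 866 to 1725 RPM in the neocortical regions, and their part was not tested. hsa-miR-412-5p rose most, with 16.0, 20.6 and 31.7 RPM (lowest, median, highest) in HC, against 7.22, 10.1 and 11.7 RPM in neocortex, without overlap (log2FC = 1.14, SE = 0.11, adjusted P = 0.000322). hsa-miR-380-3p had 124, 184 and 339.8 RPM in HC, against 76.9, 118 and 128 RPM in neocortex (log2FC = 0.94, SE = 0.14, adjusted P = 0.00218), and hsa-miR-323a-3p had 89.4, 136.1 and 172 RPM, against 61.9, 71.7 and 96.4 RPM in neocortex (log2FC = 0.84, SE = 0.11, adjusted P = 0.00131). Both were higher in 6 of 6 animals with ranges that overlapped slightly.

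The smallest called rises in HC were those of hsa-miR-889-3p, hsa-miR-539-3p and hsa-miR-758-3p. hsa-miR-889-3p had 650.0, 726 and 1009 RPM in HC, against 469.9, 605 and 709 RPM in neocortex (log2FC = 0.32, SE = 0.09, adjusted P = 0.0298). hsa-miR-539-3p had 65.8, 93.6 and 126 RPM, against 56.2, 77.0 and 86.9 RPM in neocortex (log2FC = 0.33, SE = 0.10, adjusted P = 0.0311). hsa-miR-758-3p had 47.2, 59.6 and 64.5 RPM, against 37.5, 47.1 and 61.2 RPM in neocortex (log2FC = 0.39, SE = 0.10, adjusted P = 0.0263). Their ranges overlapped, though each was higher in HC on the log scale in 6 of 6 animals.

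OC, the primary visual cortex, was compared with dlPFC, MC and PPC in B1 to B5. There 25 members were lower and 1 higher, where 42.5% of all miRNAs were called lower and 9.12% higher, with a median log2FC of -0.52 over the members and -0.25 over all miRNAs. Neuroendocrine markers summed to 106 to 178 RPM in OC, against 208 to 693 RPM in the other regions, and neuronal markers to 58221 to 71415 RPM, against 40652 to 61532 RPM, and their part was not tested. hsa-miR-770-5p fell most, with 8.43, 9.72, 13.7, 6.51 and 4.76 RPM in OC, against 20.1, 20.9, 26.9, 20.4 and 16.5 RPM in the other regions (log2FC = -1.16, SE = 0.12, adjusted P = 0.000248). hsa-miR-758-3p had 19.2, 22.0, 27.8, 26.4 and 26.2 RPM in OC, against 46.4, 42.7, 63.9, 53.4 and 72.8 RPM elsewhere (log2FC = -1.10, SE = 0.10, adjusted P = 0.000176). Neither overlapped, whereas hsa-miR-541-3p, with 5.75, 2.56, 2.62, 2.68 and 0 RPM in OC, against 7.75, 8.56, 4.98, 5.85 and 6 RPM elsewhere (log2FC = -1.14, SE = 0.33, adjusted P = 0.0217), rested on few reads and overlapped at B1. The smallest called falls were hsa-miR-376c-3p, with 65.5, 49.6, 64.0, 50.1 and 67.2 RPM in OC, against 83.7, 65.8, 68.2, 61.3 and 76.8 RPM elsewhere (log2FC = -0.26, SE = 0.08, adjusted P = 0.0279), and hsa-miR-410-3p, with 1367, 1323, 1449, 1796 and 1957 RPM, against 1730.4, 1505, 1917, 2141 and 2412 RPM elsewhere (log2FC = -0.29, SE = 0.07, adjusted P = 0.0136). Both overlapped while falling in 5 of 5 animals.

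hsa-miR-411-5p, the most abundant member, was the one that rose in OC. It had 4474, 4399, 4169, 4773 and 4481 RPM in OC of B1 to B5, against 3830.3, 3108, 3648, 3927 and 4160.3 RPM in the other neocortex (log2FC = 0.27, SE = 0.08, adjusted P = 0.0296), higher in 5 of 5 animals with just no overlap. The call was lost when any of B1, B2, B3 or B4 was left out. Under median of ratios 3 members were higher and 18 lower, with 19.1% of all miRNAs called in each direction.

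CB divided the members, and the split depended on the scaling. On the RPM scale 7 were higher and 19 lower in B1 and B3 to B6, where 23.2% of all miRNAs were called higher and 55.5% lower, with a median log2FC of -0.29 over the members and -0.41 over all. Median of ratios moved the median over all miRNAs to -0.02 and that over the members to 0.12, and gave 17 members higher and 7 lower, with 37.3% of all miRNAs higher and 40.1% lower. Quantile normalization gave 30 and 5, with 44.5 and 37.8% of all miRNAs. The 4 erythroid markers summed to 3541 to 5360 RPM in CB, against 834 to 2646 RPM in the neocortical regions, and choroid plexus markers to 3259 to 4229 RPM in CB, against 866 to 1725 RPM. Oligodendrocyte markers summed to 2927 to 3652 RPM in CB, against 5309 to 12893 RPM, and endothelial markers to 3780.1 to 4745 RPM in CB, against 5989 to 11089 RPM. Neuronal markers summed to 49209 to 62434 RPM in CB, against 40652 to 71415 RPM, with 1 of them at 0 in a CB library. The part of these in the result was not tested.

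hsa-miR-381-3p stood out above the rest in CB. It had 2296, 2047, 3177, 2739 and 1756 RPM in CB of B1, B3, B4, B5 and B6, against 795, 807, 810.3, 1025 and 792 RPM in their neocortex (log2FC = 1.48, SE = 0.12, adjusted P = 1.33e-05), the lowest CB value lying far above the highest neocortical one. It was the second most abundant member in CB, ahead of hsa-miR-410-3p, which fell to 1022, 937, 1769.9, 1287 and 1156 RPM, against 1639.5, 1799.8, 2026, 2298 and 2454 RPM in neocortex (log2FC = -0.74, SE = 0.13, adjusted P = 0.00106). hsa-miR-299-3p had 239, 172, 234, 199.7 and 162 RPM in CB, against 114, 101, 83.2, 94.7 and 110.4 RPM in neocortex (log2FC = 0.99, SE = 0.14, adjusted P = 0.000233). hsa-miR-376a-3p had 22.0, 28.1, 23.9, 21.2 and 20.2 RPM, against 16.7, 13.7, 9.81, 12.4 and 11.3 RPM in neocortex (log2FC = 0.86, SE = 0.12, adjusted P = 0.000299), and hsa-miR-654-3p had 430.1, 424, 635, 625.5 and 467 RPM, against 261, 278, 315, 405 and 341 RPM in neocortex (log2FC = 0.69, SE = 0.10, adjusted P = 0.000295). None of these 3 overlapped.

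The other members higher in CB overlapped with neocortex. hsa-miR-376c-3p had 117, 131, 138, 111 and 75.6 RPM in CB, against 79.2, 67.2, 57.6, 74.4 and 59.1 RPM in neocortex (log2FC = 0.74, SE = 0.14, adjusted P = 0.00126), and hsa-miR-377-3p had 29.4, 31.3, 27.4, 21.8 and 16.8 RPM, against 25.2, 26.8, 14.1, 14.6 and 12.6 RPM in neocortex (log2FC = 0.51, SE = 0.12, adjusted P = 0.00542). hsa-miR-154-5p had 40.1, 29.3, 37.7, 33.4 and 25.8 RPM, against 31.7, 27.1, 23.9, 24.9 and 26.6 RPM in neocortex (log2FC = 0.32, SE = 0.11, adjusted P = 0.0304), with B6 on the other side. Among those lower in CB, hsa-miR-668-3p had 10.7, 12.3, 11.5, 15.6 and 11.5 RPM, against 26.0, 35.03, 25.5, 39.6 and 33.0 RPM in neocortex (log2FC = -1.27, SE = 0.09, adjusted P = 6.06e-06). hsa-miR-412-5p had 3.11, 2.71, 4.97, 5.04 and 2.49 RPM, against 7.22, 11.7, 10.3, 9.89 and 10.6 RPM in neocortex (log2FC = -1.21, SE = 0.17, adjusted P = 0.000267), and hsa-miR-370-3p, the member that lies between the clusters, had 46.6, 45.9, 53.9, 62.1 and 35.5 RPM, against 98.8, 99.6, 88.6, 123 and 84.9 RPM in neocortex (log2FC = -0.98, SE = 0.10, adjusted P = 3.51e-05). These last 3 were lower in 5 of 5 animals without overlap.

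The 8 antisense-RTL1 miRNAs of the same domain, set beside the 46 as counts, were 0 higher and 8 lower in PBMC of Group A (median log2FC = -3.58), 0 and 8 in PBMC of Group B (-3.22) and 8 and 0 in PVN (1.48). In AMG none was called (0.84). In Group B brain they were 7 higher and 0 lower in EC (0.48), 3 and 0 in HC (0.27), 0 and 5 in OC (-0.47) and 2 and 4 in CB (-0.66).

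Under 11 names both arms were in the table, so the ratio of 5p to 3p could be followed between tissues within a library, which no scaling of a library changes beyond the added 1 RPM. Arms were paired by name alone, and whether both arms of a pair came from 1 precursor was not tested. Ratios are log2 of (5p RPM + 1) over (3p RPM + 1), tested over all 91 names with both arms. In Group A PBMC the ratio was lower than in brain for 6 of the 11 and higher for 1, where 34.1% of all pairs were called lower and 18.7% higher. In Group B PBMC it was lower for 8 and higher for 1, against 35.2 and 27.5% of all pairs. The median difference over the members was -0.97 in the first and -1.33 in the second, and -0.19 and -0.15 over all pairs.

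hsa-miR-379 moved furthest. Its 5p arm had 6.94, 8.20, 18.4 and 9.27 RPM in Group A PBMC, against 135, 114, 111 and 159 RPM in brain, while its 3p arm had 6.73, 8.20, 11.0 and 14.6 RPM, against 15.9, 14.2, 12.8 and 15.9 RPM in brain. The log2 ratio was 0.04, 0.00, 0.69 and -0.60 in PBMC of A1 to A4, against 3.08, 2.84, 3.20 and 3.45 in brain (difference -3.11, SE = 0.27, adjusted P = 4.16e-05). In Group B the 5p arm had 3.82, 5.72 and 16.1 RPM (lowest, median, highest) in PBMC, against 74.3, 83.2 and 94.9 RPM in brain, and the 3p arm 5.65, 8.44 and 20.6 RPM, against 8.52, 9.20 and 11.5 RPM. The ratio was -0.87, -0.41 and 0.00 in PBMC, against 2.84, 2.94 and 3.35 in brain (difference -3.43, SE = 0.18, adjusted P = 1.42e-05). The 5p arm was thus several times the 3p arm in every brain and about equal to it in blood, with no overlap in either group.

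hsa-miR-411 kept the 5p arm far ahead in both tissues but less so in blood. The 3p arm had 10.8, 12.6, 20.6 and 19.9 RPM in Group A PBMC, against 37.5, 42.1, 35.9 and 43.1 RPM in brain, and the log2 ratio was 5.55, 6.33, 6.17 and 5.80 in PBMC, against 7.50, 7.29, 7.30 and 7.16 in brain (difference -1.35, SE = 0.22, adjusted P = 0.000979). In Group B the 3p arm had 6.62, 11.7 and 30.4 RPM in PBMC, against 23.4, 24.8 and 31.4 RPM in brain, and the ratio was 5.21, 5.82 and 5.87 in PBMC, against 7.15, 7.30 and 7.47 in brain (difference -1.66, SE = 0.15, adjusted P = 0.000104). No ratios overlapped. hsa-miR-377 turned over: the 5p arm had 2.24, 1.89, 5.23 and 2.65 RPM in Group A PBMC, against 41.9, 41.7, 43.2 and 32.8 RPM in brain, and the 3p arm 4.49, 5.68, 9.63 and 5.30 RPM, against 24.0, 21.4, 29.4 and 18.6 RPM, so that 3p led in blood and 5p in brain. Its ratio was -0.76, -1.21, -0.77 and -0.79 in Group A PBMC, against 0.76, 0.83, 0.57 and 0.80 in brain (difference -1.62, SE = 0.20, adjusted P = 0.000353), and -2.79, -0.92 and -0.34 (lowest, median, highest) in Group B PBMC, against -0.42, 0.08 and 0.44 in brain (difference -1.33, SE = 0.44, adjusted P = 0.0319). In Group B the arms had 0, 2.87 and 4.24 RPM (5p) and 2.87, 5.71 and 21.7 RPM (3p) in PBMC, a handful of reads for 5p. These ratios overlapped, and B1 ran the other way.

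hsa-miR-539 was the exception. Its 5p arm had 0.820, 2.52, 3.85 and 1.32 RPM in Group A PBMC, against 13.0, 12.3, 13.8 and 10.7 RPM in brain, and its 3p arm 6.53, 19.6, 22.6 and 14.6 RPM, against 164, 144, 188 and 173 RPM in brain. The 3p arm led in every animal and tissue, by less in blood: the ratio was -2.05, -2.55, -2.28 and -2.75 in Group A PBMC, against -3.49, -3.34, -3.57 and -3.83 in brain (difference 1.15, SE = 0.19, adjusted P = 0.00115), and -3.01, -2.32 and -1.05 (lowest, median, highest) in Group B PBMC, against -3.36, -3.22 and -2.97 in brain (difference 1.05, SE = 0.29, adjusted P = 0.0164). In Group B the 5p arm had only 0, 1.41 and 3.57 RPM in PBMC, and the 3p arm 3.46, 9.27 and 27.4 RPM. The ratios there overlapped by a little, and the call was lost with a pseudocount of 0.1 RPM.

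The ratio of hsa-miR-409, whose 5p arm stands apart in A4 as described further on, was -7.38, -7.90, -7.58 and -3.35 in PBMC of A1 to A4, against -7.18, -6.54, -6.46 and -2.13 in brain, lower in 4 of 4 animals (difference -0.98, SE = 0.24, adjusted P = 0.00773). In Group B it was -2.14, -1.98 and -1.49 (lowest, median, highest) in PBMC, against -0.72, -0.52 and 0.17 in brain, without overlap (difference -1.44, SE = 0.16, adjusted P = 0.000258). hsa-miR-369 had ratios of -2.33, -0.72, -1.45 and -1.44 in Group A PBMC, against -0.19, -0.42, -0.42 and -0.35 in brain (difference -1.14, SE = 0.29, adjusted P = 0.00922), and -1.45, -0.99 and 0.21 in Group B PBMC, against -0.06, 0.27 and 0.62 in brain (difference -1.09, SE = 0.26, adjusted P = 0.00754). Its arms stood at 12.04, 34.1, 37.4 and 24.7 RPM (5p) and 64.7, 56.8, 104 and 68.9 RPM (3p) in Group A PBMC and had near-equal levels in brain. Ratios did not overlap in Group A but did in Group B, where B1 ran the other way. hsa-miR-299 had ratios of -3.57, -2.94, -2.38 and -3.05 in Group A PBMC, against -2.27, -2.25, -1.96 and -1.57 in brain (difference -0.97, SE = 0.23, adjusted P = 0.00718), and -3.45, -3.17 and -2.24 in Group B PBMC, against -1.84, -1.47 and -1.31 in brain, without overlap (difference -1.53, SE = 0.19, adjusted P = 0.000378). Its 5p arm had 1.02, 5.05, 10.2 and 3.53 RPM and its 3p arm 23.1, 45.4, 57.2 and 36.6 RPM in Group A PBMC, and there the difference was 0.03 with a pseudocount of 10 RPM.

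In Group B, hsa-miR-376a and hsa-miR-485 were also lower. hsa-miR-376a was at 0.00, 1.32 and 2.21 (lowest, median, highest) in PBMC, against 2.08, 2.56 and 2.70 in brain (difference -1.26, SE = 0.27, adjusted P = 0.00481), its 5p arm having 4.61, 8.03 and 27.4 RPM in PBMC, against 72.7, 92.2 and 117 RPM in brain, and its 3p arm 0.830, 3.67 and 10.3 RPM, against 14.6, 16.3 and 20.6 RPM. hsa-miR-485 was at -1.64, 0.23 and 1.46 in PBMC, against 0.90, 1.53 and 1.74 in brain (difference -1.33, SE = 0.43, adjusted P = 0.03), its 5p arm having 4.47, 5.75 and 28.5 RPM in PBMC, against 119, 128 and 146 RPM in brain, and its 3p arm 1.41, 7.62 and 16.1 RPM, against 43.7, 46.4 and 65.3 RPM. Both pairs overlapped between blood and brain, each being lower in 6 of 6 animals. In Group A neither was called (difference -0.08, SE = 0.23, adjusted P = 0.766 for hsa-miR-376a and difference 0.17, SE = 0.31, adjusted P = 0.647 for hsa-miR-485), and the difference between the groups was not tested.

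**Figure D4:**
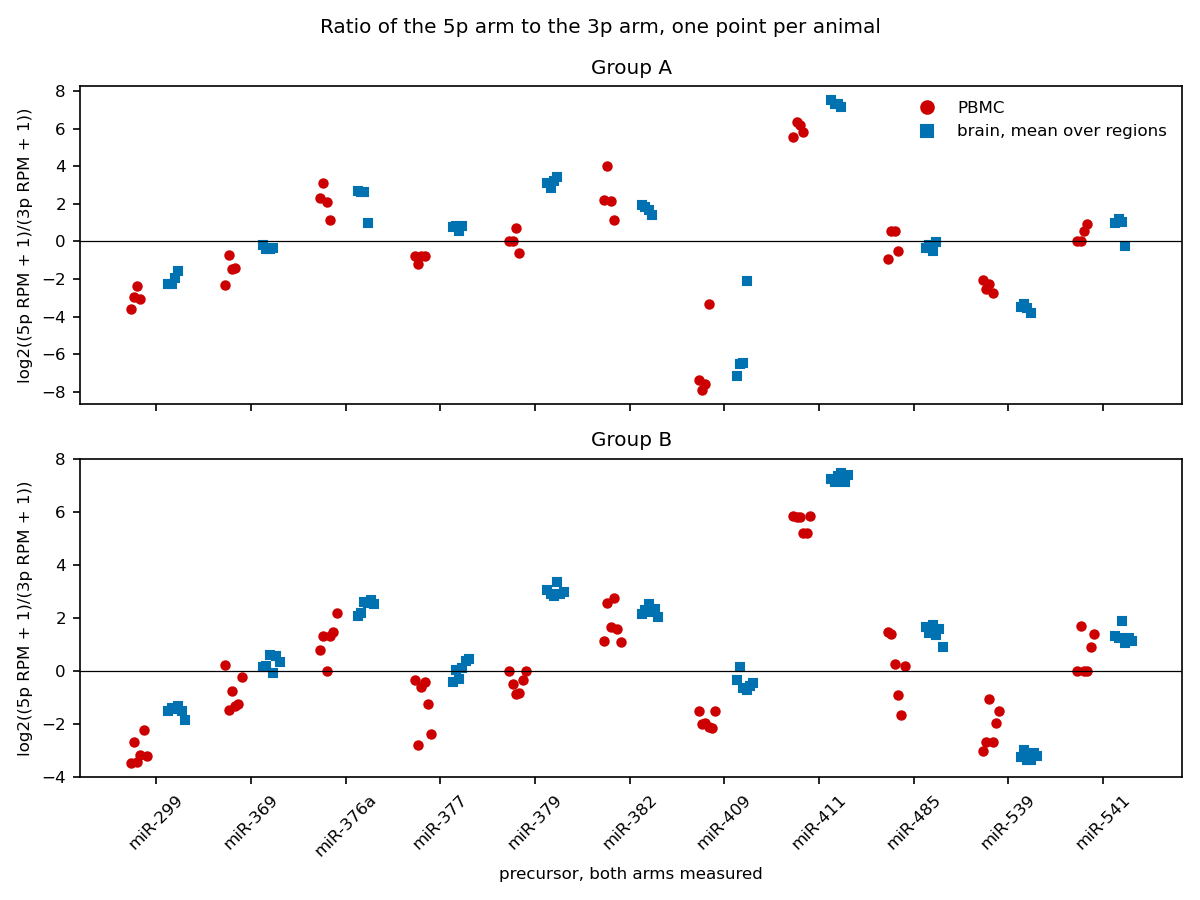
Log2 ratio of the 5p arm to the 3p arm (y axis, 1 RPM added to each) for the 11 names with both arms (x axis). Group A is above and Group B below, with 1 point per animal for PBMC and 1 for the mean of its brain regions. hsa-miR-379 separates most, with PBMC between -0.60 and 0.69 in Group A, against 2.84 to 3.45 in brain, and hsa-miR-409 in Group A holds 1 animal (A4) far above the other 3 in both tissues.

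Arm ratios were also compared between brain regions. In PVN the ratio was higher than in cortex for 1 of the 11 pairs and lower for 4, where 14.3% of all pairs were called higher and 20.9% lower, with medians of -0.16 over the members and -0.04 over all pairs. The counts were 1 and 4 without the AMG and mOFC libraries of A3, an alternative chosen after seeing the data. hsa-miR-376a shifted toward 5p, at 3.25, 3.96, 3.31 and 2.04 in PVN of A1 to A4, against 2.57, 2.37, 2.65 and 0.77 in cortex (difference 1.06, SE = 0.18, adjusted P = 0.0153). Its 5p arm had 354, 594, 551 and 182 RPM in PVN, against 117, 95.6, 135.96 and 36.2 RPM in cortex, and its 3p arm 36.2, 37.1, 54.6 and 43.4 RPM, against 19.0, 17.6, 20.8 and 20.5 RPM, with A4 lowest for 5p in both. hsa-miR-409 shifted toward 3p, at -7.89, -8.33, -7.74 and -2.91 in PVN, against -7.11, -6.86, -6.66 and -1.97 in cortex, lower in 4 of 4 animals (difference -1.06, SE = 0.13, adjusted P = 0.00591). hsa-miR-411 was at 6.86, 6.16, 6.91 and 6.51 in PVN, against 7.61, 7.49, 7.39 and 7.29 in cortex (difference -0.84, SE = 0.15, adjusted P = 0.0162), its 3p arm having 92.5, 143, 93.5 and 112 RPM in PVN, against 25.4, 23.1, 26.8 and 29.3 RPM in cortex. It did not overlap. hsa-miR-539 was at -3.89, -3.89, -4.04 and -4.04 in PVN, against -3.41, -3.23, -3.47 and -3.79 in cortex, without overlap (difference -0.49, SE = 0.09, adjusted P = 0.019), and hsa-miR-299 at -2.75, -2.53, -2.44 and -1.78, against -2.21, -2.27, -1.88 and -1.53 (difference -0.40, SE = 0.09, adjusted P = 0.0275), with overlap. Without animal A3, 0 members were called in either direction, and without the animal as a block 0 higher and 1 lower. These calls rest on 4 animals and their pairing. The calls over all pairs under these settings are not given here, so the loss may not be particular to the members.

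In CB no pair was higher and 6 were lower than in neocortex, where 17.6% of all pairs were called higher and 22.0% lower, with medians of -0.47 over the members and 0.00 over all pairs. hsa-miR-376a was at 1.74, 1.69, 1.97, 2.12 and 1.85 in CB of B1, B3, B4, B5 and B6, against 2.22, 2.77, 2.84, 2.97 and 2.83 in neocortex, without overlap (difference -0.85, SE = 0.10, adjusted P = 0.000554). Only its 3p arm had risen, since the 5p arm had 75.7, 92.7, 96.2, 95.5 and 75.3 RPM in CB, against 82.2, 98.8, 74.0, 100.3 and 83.8 RPM in neocortex. hsa-miR-377 was at -0.85, -0.84, -0.69, -0.43 and -0.62 in CB, against -0.41, -0.34, 0.16, 0.56 and 0.66 in neocortex (difference -0.81, SE = 0.13, adjusted P = 0.00225), lower in 5 of 5 animals and just without overlap. hsa-miR-382 was at 1.78, 1.99, 1.33, 1.72 and 1.70, against 2.18, 2.68, 2.36, 2.45 and 1.91 (difference -0.61, SE = 0.12, adjusted P = 0.00459), its 5p arm having 30.5, 32.3, 38.7, 34.4 and 28.6 RPM in CB, against 46.01, 61.1, 49.3, 60.6 and 43.1 RPM in neocortex, and its 3p arm 8.19, 7.39, 14.8, 9.74 and 8.09 RPM, against 9.79, 8.78, 9.12, 10.1 and 10.7 RPM. These overlapped.

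hsa-miR-379 was at 3.08, 1.56, 2.84, 2.72 and 2.36 in CB, against 2.90, 2.99, 3.45, 3.10 and 3.10 in neocortex (difference -0.60, SE = 0.20, adjusted P = 0.0432), B1 alone running the other way. hsa-miR-299 was at -2.19, -1.84, -1.67, -1.87 and -2.61 in CB, against -1.38, -1.47, -1.27, -1.49 and -1.75 in neocortex (difference -0.56, SE = 0.11, adjusted P = 0.00361), and hsa-miR-539 at -3.89, -3.47, -3.71, -3.26 and -3.63, against -2.99, -3.29, -3.20, -2.89 and -3.22 (difference -0.47, SE = 0.11, adjusted P = 0.00957). Both were lower in 5 of 5 animals. With both arms at a mean of at least 10 RPM, 3 member pairs were called lower, and the share over all pairs under that filter is not given here.

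For some members 1 animal stood apart across its tissues. hsa-miR-409-5p was far higher in A4 than in A1 to A3 in each of the 7 tissues taken from A4, by a median ratio of 29.8 to the median of the others, 1 RPM added to both (26.5 to 45.95). PBMC of A4 had 75.5 RPM, against 0.610, 1.89 and 2.75 RPM in A1, A2 and A3, and PVN of A4 had 776 RPM, against 25.9, 14.1 and 25.03 RPM. In the cortical regions A4 had 212, 331, 249, 229 and 135 RPM in dmPFC, dACC, lOFC, mOFC and PCC, against 2.26 to 13.6 RPM over the other 3 animals. The amygdala of A2, a library of an animal that was low elsewhere, had 248 RPM, against 14.3 RPM in A1 and 41.3 RPM in A3. The partner arm did not move with it: hsa-miR-409-3p of A4 had 5838 RPM in PVN, against 6352, 4854 and 5548 RPM in A1 to A3. In Group B, hsa-miR-409-5p was at 57.9 to 751 RPM in all 45 libraries. Since only reads with 0 mismatches were counted, a base that differs between animals and a difference in amount cannot be told apart here.

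**Figure D5:**
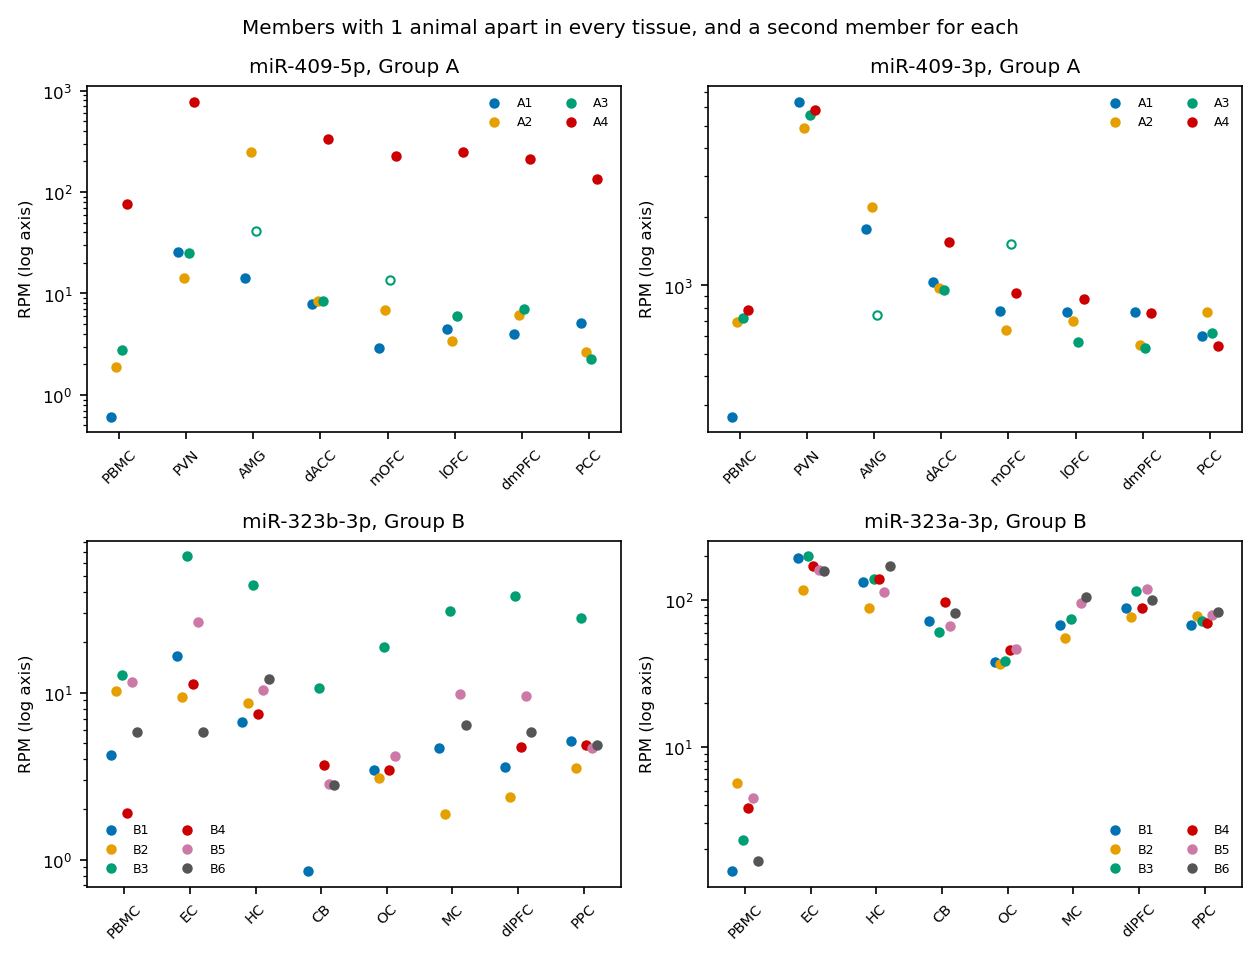
Level in each library (y axis, RPM, log axis) by tissue (x axis) for hsa-miR-409-5p and hsa-miR-409-3p in Group A and for hsa-miR-323b-3p and hsa-miR-323a-3p in Group B, 1 symbol per animal, with open symbols for the AMG and mOFC libraries of A3. A4 lies apart for hsa-miR-409-5p (75.5 RPM in PBMC, 776 RPM in PVN) but not for hsa-miR-409-3p, and B3 lies apart for hsa-miR-323b-3p (65.5 RPM in EC).

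In Group B, 1 animal stood apart for hsa-miR-323b-3p. B3 was above every other animal in all 8 tissues, by a median ratio of 4.78 (2.02 to 6.85), computed the same way. It had 44.2, 10.6, 38.2, 30.9, 65.5, 28.1 and 18.9 RPM in its brain regions in the order HC, CB, dlPFC, MC, EC, then PPC and OC, and 12.7 RPM in PBMC. The other animals ranged over 0.85 to 26.4 RPM in brain and 1.91 to 11.6 RPM in PBMC, so B3 stood little above the next animal in blood and well above it in every brain region. Over the whole table, 6 miRNAs had 1 animal apart in every tissue by a median ratio of at least 4 in either direction, and 2 of the 6 were members. The animal was A4 for 4 of the 6 (hsa-miR-409-5p, hsa-miR-100-5p, hsa-miR-99b-5p and hsa-miR-1271-5p), so A4 stood apart for miRNAs outside the cluster too.

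The study's own measure, the correlation of an animal's PBMC level with its mean brain level, was computed here for the 6 animals of Group B. Of 43 members with values that vary, 2 passed the one-sided rule (r above 0.73), where 12.9% of 340 miRNAs did. The median r was -0.19 over the members, 27 of them being below 0, and 0.18 over all, as a description. Without B2 the members' median was 0.13, with 14 below 0. hsa-miR-379-3p had 5.65, 14.8, 9.23, 7.65, 20.6 and 5.79 RPM in PBMC of B1 to B6, against 9.01, 9.03, 9.57, 8.52, 11.5 and 9.37 RPM in brain (Pearson's r = 0.77, exact permutation P = 0.0931, adjusted P = 0.688 over 340, Spearman's rho = 0.60, exact P = 0.242, adjusted P = 0.916). Without B2 and B5, the animals farthest from the PBMC median, r was 0.19, and without B5 alone -0.02. hsa-miR-409-5p had 121, 372, 98.0, 87.0, 165 and 57.9 RPM in PBMC, against 399, 511, 356, 290.0, 288 and 339 RPM in brain (r = 0.79, exact permutation P = 0.0986, adjusted P = 0.699, rho = 0.37, exact P = 0.497, adjusted P = 0.969). Its r was 0.60 without B2 and B5 and -0.17 without B2 alone, against 0.92 without B5. The relation of hsa-miR-379-3p rests on B5, r being 0.93 without B2, and that of hsa-miR-409-5p on B2, and 0 members passed on a log2 scale or by Spearman's rho. The brain means averaged unequal sets of regions, since B2 lacked CB, B4 lacked MC and B6 lacked OC. Over the 4 regions present in every animal, r was 0.70 for hsa-miR-379-3p and 0.57 for hsa-miR-409-5p. There 0 members passed, against 46 of 340 miRNAs. The correlation was not computed here for the 4 animals of Group A.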

How the data were processed

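Small RNA libraries (TruSeq small RNA kit, Illumina GAIIx) were aligned by the authors with Bowtie within mirDeep2 to human mature miRNAs of miRBase version 21 with 0 mismatches; program versions are not given in the sources used here. Libraries with fewer than 500000 mapped reads were left out, and a miRNA was kept if 80% of the brain samples held 10 or more reads of it. Deposited values are RPM, computed by the authors as reads per 1000000 mapped miRNA reads, and a deposited total read count, which the authors summed over libraries for each miRNA. Whole reads were recovered from the RPM steps (100.0% of values whole within 0.1 reads) for the count tests. Per the labels libraries had 2 sequencing runs each, apart from the amygdala of A3 with 4. Runs are combined in the deposited table, and 76 libraries were used.

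Members were grouped by miRNA number, tissues by the labels. The members, lists and tests were chosen with earlier results of these data known. Each comparison used 1 value per animal and class, the mean of log2(RPM + 1), fitted in limma 3.58.1 (R 4.3.3) with a block for each animal; p-values were adjusted over all miRNAs of the table by the Benjamini-Hochberg method (threshold 0.05). The classes come from the same animals by label, and deviations of same-animal values correlated at 0.298 to 0.577 in Group A PBMC and brain, -0.12 to 0.273 in Group B PBMC and brain, 0.461 to 0.862 in PVN, -0.10 to 0.339 in AMG and 0.357 to 0.685 over CB, HC, EC and OC. Reference values: PVN and AMG against dmPFC, dACC, lOFC, mOFC and PCC, CB, HC and EC against dlPFC, MC, PPC and OC, OC against dlPFC, MC and PPC. Arm ratios were tested likewise over 91 pairs of arms with the same name. Blood-brain correlations in Group B used exact permutation (scipy 1.17.1). Each animal gave 1 sample per tissue, so p-values measure the spread between animals. Intervals and floors (3 reads) cover counting error only. Alternatives were quantile and median of ratios scaling, edgeR 4.0.16 (quasi-likelihood) and DESeq2 1.42.0 on recovered reads, a filter at a 10 RPM mean, added values of 0.1 and 10 RPM, no block, log2 of the mean RPM, other reference regions, and leaving out animals or the AMG and mOFC libraries of A3. The tests were checked on simulated data.

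Values were given for the 8 members with the highest mean, the 3 highest and 3 lowest called members per comparison that moved the same way in every animal, members called against the majority, arms of called pairs, members with 1 animal apart by a ratio of at least 4, and members past the correlation rule. Other members named in the text (hsa-miR-134-5p, hsa-miR-412-5p in AMG, hsa-miR-379-3p and hsa-miR-1185-1-3p in PBMC) were picked once their values had been seen. The hippocampal samples are headed as dentate gyrus in the table and as hippocampus in the labels.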

Additional observations from a re-analysis of the deposited data

Results flagged for a closer look

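Of 91 sets of 4 to 10 values tested for a single sample far from the others, 15 had one. Chance flags about 1 in 20 sets, but 13 of the 15 are of members that were named because 1 animal stood apart in every tissue, over tissues of the same animal, so the count is a description.

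hsa-miR-409-5p accounted for 8 of them. A4 stood above the other Group A animals in 7 tissues, at 75.5 RPM in PBMC, 776 RPM in PVN, 212 RPM in dmPFC, 331 RPM in dACC, 249 RPM in lOFC, 229 RPM in mOFC and 135 RPM in PCC. In Group B, PBMC of B2 stood above the other 5 animals, at 372 RPM.

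hsa-miR-323b-3p of B3 stood apart in 6 brain regions, at 44.2 RPM in HC, 38.2 RPM in dlPFC, 30.9 RPM in MC, 65.5 RPM in EC, 28.1 RPM in PPC and 18.9 RPM in OC. The remaining one was hsa-miR-409-3p in A1, whose PBMC-minus-brain difference of -2.14 (log2) lay below those of A2 to A4.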

How the results depend on the processing

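Over the results recomputed, 823 values under the alternatives kept direction and side of the threshold, 117 kept direction but missed it, and 11 changed sign. Causes were not tested. Under quantile normalization, members in Group A PBMC were 8 higher and 27 lower, with hsa-miR-369-3p at 0.61 and hsa-miR-323b-3p at 1.97 (log2), and in Group B PBMC 11 higher and 22 lower, with hsa-miR-382-3p at 0.92. It gave hsa-miR-656-3p -0.068 in PVN, 30 higher and 5 lower in CB, 1 lower in EC (24.0% of all miRNAs), and 3 higher and 14 lower in OC (18.0 and 17.7%), with hsa-miR-376c-3p at 0.077. Median of ratios gave hsa-miR-369-3p 0.078 in Group A PBMC, 1 member higher in Group B PBMC, 17 higher and 7 lower in CB and 3 higher in OC. edgeR gave 1 higher in Group B PBMC (32.6% of all miRNAs), 17 higher and 9 lower in CB (37.8 and 41.7%) and 4 higher in OC (25.7%). DESeq2 gave hsa-miR-369-3p 0.0093 in Group A PBMC, 1 higher in Group B PBMC (34.5%), 3 higher in AMG (2.49%), 18 higher and 6 lower in CB (37.6 and 39.5%), and 3 higher and 16 lower in OC (22.9 and 21.5%). With all other brain regions as the reference, 30 members were lower in CB, with 59.7% of all miRNAs. Without the AMG and mOFC libraries of A3, 37 were higher in AMG (20.4%).

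Without the animal as a replicate block, 11 members were higher in HC (8.56% of all miRNAs), 0 in OC (6.91%), and among arm ratios in PVN 0 were higher and 1 lower. The block changed no other count by over 1.5 times. In arm ratios, hsa-miR-299 was at 0.031 in Group A PBMC with a pseudocount of 10 RPM, which gave 2 higher in PVN. In Group B PBMC 0 were higher with 0.1 RPM or with both arms at 10 RPM or more, and that filter gave 3 lower in CB. For the arm counts of this paragraph the shares over all pairs are not given here, so these changes may not be particular to the members.

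Leaving out 1 animal at a time gave 0 to 1 members higher in Group B PBMC (1 without B6, where 116 of all miRNAs were), 0 to 37 in AMG (37 without A3), 10 to 23 in HC (7.18 to 14.9% of all) and 0 to 1 in OC (6.91 to 10.2%). Arm pairs higher were 1 to 2 in Group A PBMC and 0 to 1 in PVN, where 0 to 5 were lower. The shares over all pairs under these settings are not given here, so the changes may not be particular to the members. Members past the correlation rule numbered 0 on the log2 scale, by Spearman's rho and over regions present in every animal, and 0 to 2 with 1 animal left out (0 without B3 and without B4). The members' median r was -0.30 to 0.13, that of hsa-miR-379-3p -0.016 to 0.93, lowest without B5 and highest without B2, and that of hsa-miR-409-5p -0.17 to 0.92, lowest without B2 and highest without B5. The members' median was 0.13 without B2. Group B PBMC libraries were the shallowest, so a count of 0 there allowed a level of up to 2.48 to 4.24 RPM, by library. Values of a few RPM there rest on few reads.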
